A study of Mus musculus with 14 samples.

Results

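Axon guidance ligands and receptors were examined in the aged mouse brain. They were taken by gene name from the families of semaphorins (Sema3 to Sema7), plexins, neuropilins, ephrins, Eph receptors, Slits, Robos, netrins, netrin-Gs, Dcc, Unc5 receptors, Dscam and Dscaml1, which gave 73 of the 43346 genes in the count table. The names alone decided membership, although the set was proposed with earlier results of these data known. RNA was sequenced from brain tissue covering hippocampus and cortex of 14 female mice aged 23 months, all of the strain labelled C57BL/6;SJL-Tg. There were 4 non-transgenic (NTG) mice, 5 APP/PS1 mice and 5 APP/PS1 mice given CP2, an inhibitor of mitochondrial complex I. APP/PS1 mice, labelled APP/PS1 +/+, carry mutant human APP and PS1 transgenes and model amyloid pathology of Alzheimer's disease. The animals labelled as non-treated drank water with 0.1% PEG, the vehicle, and the treated animals, started when 9 months old, took CP2 in it at 25 mg/kg/day. NTG mice given CP2 are not analysed here, so an effect of CP2 without the transgenes was not assessed. Mice are named by their library numbers, 7 to 10 for NTG, 16 to 20 for APP/PS1 and 21 to 25 for CP2-treated APP/PS1 mice.

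Guidance cues steer growing axons by attracting or repelling the growth cone through receptors that act on the cytoskeleton. Semaphorins signal through plexins, with neuropilins as co-receptors for the secreted class, ephrins bind Eph receptor tyrosine kinases between touching cells, Slits bind Robos, and netrins bind Dcc, Unc5 and Dscam family receptors. In the adult brain the same molecules are known at synapses, in myelinating cells, in microglia and in vessels. Netrin-Gs, despite their name, are anchored to the membrane of axons and bind Netrin-G ligands at synapses rather than the netrin receptors.

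Promoter sequence is given for 5 of the members on which the comparisons turned. Each of the 5 had a RefSeq start in the sequence table. Other such members with a matched promoter, among them Sema4d, Plxnb2 and Ntng1, are not shown. Epha2 and Plxna3 were called in a comparison with NTG mice, and Dscam, Slit2 and Sema5a were higher with CP2 than with vehicle in APP/PS1 mice at an unadjusted p under 0.05 whichever mouse was left out. Each sequence holds the 250 bases before the RefSeq start (build GRCm38.p6), 5′ to 3′ on the strand of the gene. Capitals mark the GC box, searched as GGGCGG and as CCGCCC on the other strand, with overlapping matches counted separately. The positions are chr4:141300971-141301220 (plus strand) for Epha2, chrX:74328816-74329065 (plus) for Plxna3, chr16:97170736-97170985 (minus) for Dscam, chr5:47982905-47983154 (plus) for Slit2 and chr15:32244563-32244812 (plus) for Sema5a.
Epha2: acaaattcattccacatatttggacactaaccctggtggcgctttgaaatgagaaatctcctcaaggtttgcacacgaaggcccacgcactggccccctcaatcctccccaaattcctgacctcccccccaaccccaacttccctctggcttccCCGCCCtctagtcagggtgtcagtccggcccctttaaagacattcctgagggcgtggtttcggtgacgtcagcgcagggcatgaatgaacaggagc
Plxna3: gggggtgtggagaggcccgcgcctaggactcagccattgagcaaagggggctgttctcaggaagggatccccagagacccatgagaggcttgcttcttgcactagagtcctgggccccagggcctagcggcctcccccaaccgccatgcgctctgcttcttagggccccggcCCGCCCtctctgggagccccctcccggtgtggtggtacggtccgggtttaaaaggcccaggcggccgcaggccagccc
Dscam: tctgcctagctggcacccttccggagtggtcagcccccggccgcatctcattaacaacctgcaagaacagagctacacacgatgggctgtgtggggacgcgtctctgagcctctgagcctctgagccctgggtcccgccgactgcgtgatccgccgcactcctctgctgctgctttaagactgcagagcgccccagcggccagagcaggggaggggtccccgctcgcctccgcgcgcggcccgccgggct
Slit2: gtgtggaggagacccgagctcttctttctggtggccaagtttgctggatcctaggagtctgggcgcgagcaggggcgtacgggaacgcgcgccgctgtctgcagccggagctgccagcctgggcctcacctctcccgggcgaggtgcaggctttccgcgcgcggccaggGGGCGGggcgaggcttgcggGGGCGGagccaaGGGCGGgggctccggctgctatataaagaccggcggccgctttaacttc
Sema5a: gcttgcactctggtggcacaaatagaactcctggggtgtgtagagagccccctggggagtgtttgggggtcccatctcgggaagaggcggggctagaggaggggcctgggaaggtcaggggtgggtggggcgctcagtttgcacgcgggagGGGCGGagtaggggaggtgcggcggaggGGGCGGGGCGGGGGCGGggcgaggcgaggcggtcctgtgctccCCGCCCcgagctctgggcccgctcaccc

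The GC box occurred 5 times before Sema5a, 3 times before Slit2, once each before Epha2 and Plxna3, and was not found in this window of Dscam. Promoters were matched for 62 of the 73 members, with 78 promoters in all. A GC box was held by 54 of the 78 (69.2%), against 32.7% of all 32851 promoters in the table. CCAAT was found in 26.9% of member promoters and 33.8% of all promoters, TATAAA in 2.56% and 12.4%, CACGTG in 5.13% and 6.02%, and the cyclic AMP response element TGACGTCA in 1.28% and 1.55%. Both strands were searched. Of the sequences shown, the TATAAA motif lay in that of Slit2 and the TGACGTCA motif in that of Epha2. The median number of CpG dinucleotides was 15.5 in the promoters of members and 6 in all promoters. Their median GC content was 64.4% and 52.4%, and its part in the motif shares was not tested. No promoter was matched for Unc5d, Sema6a, Slit1, Efnb3, Sema3f, Sema3b, Plxna1, Dscaml1, Dcc, Ntn1 and Plxna4.

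All 73 members had counts in every mouse. Levels per transcript length, taken from the deposited RPKM values as means over the 14 mice, covered a wide range in each family. Efnb3, a membrane-anchored ephrin of neurons and oligodendrocytes, had the highest level of all members (32.0 RPKM), followed by the GPI-anchored semaphorin Sema7a (29.5 RPKM) and Sema6b (26.5 RPKM), a ligand of A-type plexins. The netrin receptor Unc5a stood at 20.7 RPKM, the receptor Epha4 at 20.1 RPKM, the kinase-dead receptor Ephb6 at 18.7 RPKM and Slit1 at 16 RPKM. Plxna1, a receptor for secreted semaphorins, was the highest of the plexins and neuropilins (12.8 RPKM). The netrin receptor Dcc, prominent in development, was at 1.68 RPKM. Efna4 (0.194 RPKM, 20 to 54 counts per mouse) and Epha1 (0.314 RPKM, 69 to 146 counts) did not pass the filter on low counts and were not tested, which left 71 members. Epha2 passed it only through the APP/PS1 groups. The plot of levels per length shows that Efna4, Epha2 and Epha1 stood below every other member.

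**Figure D1:**
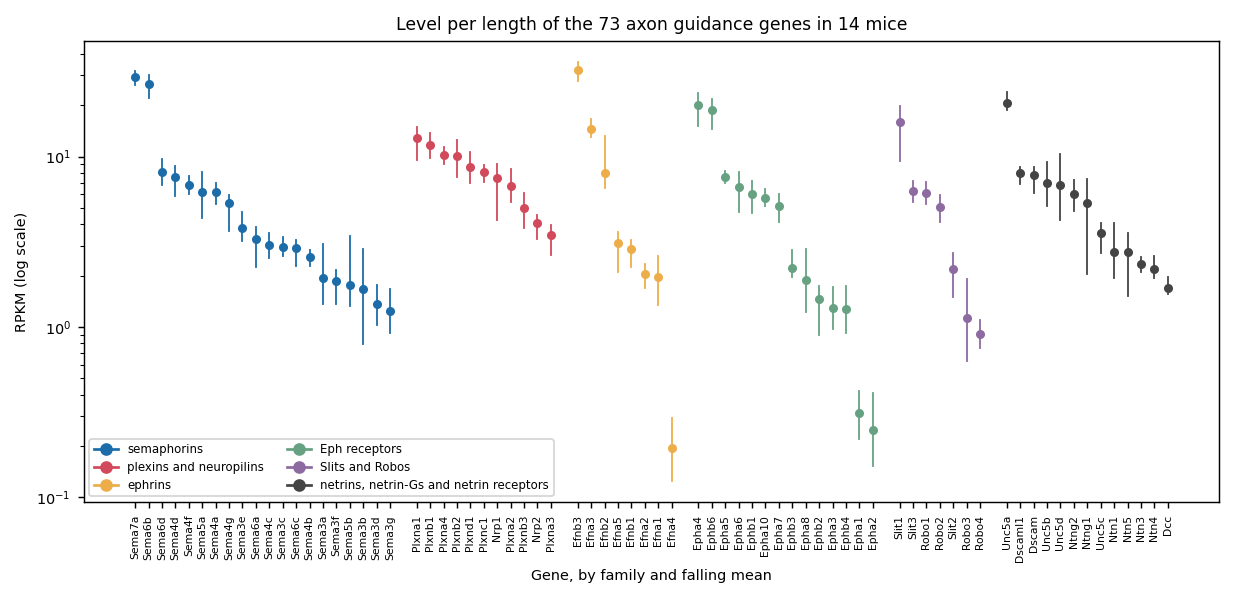
Mean RPKM over all 14 mice (points) and the lowest to highest mouse (lines) for the 73 genes, on a log scale, ordered within each family by falling mean. Means run from 32.0 RPKM for Efnb3 to 0.194 RPKM for Efna4.

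Total counts ranged from 70548781 to 106235625 per mouse, so that 1 count was worth 0.00918 to 0.0149 CPM (counts scaled to library size), and every member other than those 3 had at least 258 counts in each mouse. Neuronal markers were high in every mouse (summed over 10 genes, 6086 to 7228 CPM), and markers of cortical layers, of the dentate gyrus and of the hippocampal CA fields were all counted. Mouse 16 of the APP/PS1 group stood apart. Its 11 striatal markers summed to 2726 CPM against 226 to 420 CPM in the other mice, Drd1 being at 110 CPM against 5.3 to 11.9 CPM. Its thalamic markers summed to 173 CPM against 332 to 625 CPM and its dentate gyrus markers to 236 CPM against 303 to 390 CPM. The label gives brain for all mice. Of the 71 tested members, mouse 16 was the lowest of the 5 APP/PS1 mice in 33 and the highest in 17, and the lowest of all 14 mice in 24. Results are therefore also given without mouse 16.

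The first comparison, of APP/PS1 with NTG mice, asks how amyloid-bearing brains differ. In it 4 members rose at an adjusted p under 0.05 and none fell. They were the netrin receptor Unc5d, the receptor Epha2, the semaphorin Sema4d and its family's receptor Plxnb2. The 4 were 5.63% of the members tested, and 4.34% of all 16417 genes tested rose by the same rule. Epha2 passed the filter on low counts only through the APP/PS1 mice and so had to differ, and without it the count was 3 of 70 (4.29%). Among all genes 1.34% fell. At an unadjusted p under 0.05, 6 members were higher (8.45%, against 10.6% of all genes) and 9 were lower (12.7%, against 8.05% of all genes). Without Epha2, 5 of 70 were higher (7.14%). The median log2 fold change was -0.06 over members and -0.00 over all genes, with 27 members above 0 (38%, against 48.8% of all genes). Changes are log2 fold changes from the edgeR quasi-likelihood test with Benjamini-Hochberg adjustment over all genes tested, given with their standard error. In bulk tissue, fewer cells of a type and less RNA per cell cannot be told apart.

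Unc5d (chr8:28646717-29219338) encodes a netrin receptor of cortical neurons that also binds FLRT proteins. It stood at 46.8, 50.0, 51.0 and 57.8 CPM in NTG mice 7 to 10. In APP/PS1 mice 16 to 20 it stood at 58.5, 78.1, 69.4, 78.2 and 84.7 CPM. The groups did not overlap, mouse 16 lying closest to the NTG mice. Unc5d rose by 0.52 ± 0.10 on the log2 scale (43.6%, adjusted p = 0.0162). The call held in 6 of 9 fits that left out 1 mouse, the highest adjusted p being 0.0573 without NTG mouse 9, and was 0.000909 without mouse 16.

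Epha2, a receptor of the EphA class for ephrin-As, known in epithelium and endothelium, was the lowest member tested (69 to 189 counts per mouse). It stood at 0.997, 1.03, 1.06 and 0.851 CPM in NTG mice and at 1.15, 1.43, 1.74, 1.81 and 1.41 CPM in APP/PS1 mice. The groups did not overlap, but Epha2 entered the test only because it exceeded the filter in APP/PS1 mice, so that it had to differ. Its log2 fold change was 0.62 ± 0.16 (53.4%, adjusted p = 0.0485). The adjusted p passed the threshold in 1 of 9 fits with a mouse left out, that without mouse 16 (0.0137).

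Sema4d (chr13:51701246-51793747), a transmembrane semaphorin expressed by oligodendrocytes, binds B-type plexins. It stood at 52.2, 48.7, 51.8 and 53.0 CPM in NTG and at 55.5, 57.9, 65.1, 68.9 and 66.3 CPM in APP/PS1 mice. All APP/PS1 mice lay above all NTG mice, and mouse 16 was again the lowest of them. Sema4d rose by 0.29 ± 0.07 (22%, adjusted p = 0.0379). Oligodendrocyte markers overlapped between the groups (5390 to 7852 CPM in NTG and 4843 to 7343 CPM in APP/PS1 mice). Without 1 mouse at a time the adjusted p ranged from 0.00718 to 0.101 and passed in 2 of 9 fits.

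Plxnb2 (chr15:89155549-89171120) is a B-type plexin that binds Sema4 proteins and is known in microglia, astrocytes and progenitors. It stood at 71.7, 74.6, 68.3 and 78.5 CPM in NTG and at 76.2, 96.4, 92.6, 108 and 97.5 CPM in APP/PS1 mice. Only mouse 16 reached down into the NTG range. Plxnb2 rose by 0.36 ± 0.09 (28.6%, adjusted p = 0.0454), and its adjusted p was 0.00172 without mouse 16 and 0.141 without NTG mouse 9, passing in 1 of 9 such fits. Microglial and reactive astrocyte markers were higher in the same mice. The 10 microglial markers summed to 393 to 410 CPM in NTG and 778 to 1106 CPM in APP/PS1 mice, and 7 markers of reactive astrocytes to 470 to 733 CPM and 1375 to 3421 CPM. General astrocyte markers were at 4650 to 5352 CPM in NTG and 4056 to 4672 CPM in APP/PS1 mice, with 6 of 9 negative. The part of these markers in the differences was not tested.

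Without the filter on low counts Unc5d and Plxnb2 remained called and Epha2 and Sema4d did not, and Epha2 was also lost in the fit of all 3 groups. The number of called members depended on single mice. With 1 mouse left out it was 0 without NTG mouse 8 or 9, 1 without NTG mouse 7 (Efna3, lower), without APP/PS1 mouse 18, 19 or 20 (Unc5d), 2 without NTG mouse 10 or APP/PS1 mouse 17, and 5 without mouse 16 (all higher, when 6.62% of all genes were). Epha2, which had to differ, was among these 5. The fifth gene without mouse 16 was Sema3b, a secreted semaphorin that signals through neuropilins. Sema3b stood at 6.46, 7.71, 4.98 and 6.09 CPM in NTG and at 4.56, 13.6, 15.9, 15.5 and 10.1 CPM in APP/PS1 mice. Mouse 16 was the lowest of all mice and the other 4 APP/PS1 mice lay above all NTG mice. With all mice the log2 fold change was 0.92 ± 0.32, and Sema3b was called by DESeq2 (adjusted p = 0.0249) and limma-voom (adjusted p = 0.0244) but not by edgeR (adjusted p = 0.142). By edgeR it was 1.13 ± 0.16 without mouse 16 (adjusted p = 0.00186). Meningeal markers, 8 genes, summed to 95.6 CPM in mouse 16 against 180 to 265 CPM in the other APP/PS1 mice and 157 to 234 CPM in NTG mice, and their part was not tested.

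The 9 members that were lower in APP/PS1 mice at an unadjusted p under 0.05 were the ligands Sema5a, Ntng2, Efna3, Efna2 and Sema7a and the receptors Epha3, Epha6, Ephb2 and Dscam. None of them passed the adjustment. By other tools, DESeq2 called Sema5a, limma-voom called none and edgeR with all 3 groups in 1 fit called Sema5a and Ntng2. Sema5a (chr15:32244813-32696341), an axon guidance protein with thrombospondin repeats, stood at 80.04, 81.3, 94.8 and 105 CPM in NTG and at 56.6, 66.1, 74.4, 79 and 75.7 CPM in APP/PS1 mice. It was the only member whose APP/PS1 mice all lay below the NTG mice (1.41% of members, against 3.83% of all genes), with a log2 fold change of -0.36 ± 0.11 (unadjusted p = 0.00898, adjusted p = 0.103). For higher values without overlap the count was 3 members (Epha2, Sema4d and Unc5d), 4.23% against 6.13% of all genes, and 2 of 70 without Epha2.

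Among the other lower members, Ntng2, a netrin-G, stood at 28.9, 29.9, 36.7 and 33.5 CPM in NTG and at 26.3, 22, 26.3, 29.5 and 27.7 CPM in APP/PS1 mice. One APP/PS1 mouse, mouse 19, lay above the lowest NTG mouse. The log2 fold change was -0.29 ± 0.10 (adjusted p = 0.123), but 14% of the exonic bases of Ntng2 are shared with a noncoding gene on the same strand. Reads in the shared bases were counted on both genes. For Efna3 the share was 14.1%, with a gene on the opposite strand. The receptor Ephb2, which binds B-type ephrins at synapses, had a log2 fold change of -0.36 ± 0.15 (adjusted p = 0.231), and Epha3 and Epha6 had -0.35 ± 0.13 and -0.35 ± 0.15 (adjusted p = 0.184 and 0.226).

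By family, 12 of 13 netrins, netrin-Gs and their receptors had a negative log2 fold change, with a median of -0.08, Unc5d being the exception. Of the 13 Eph receptors tested, 10 were negative (median -0.12), and Epha2, Ephb4 and Ephb6 were positive. Ephrins had a median of -0.06 (5 of 7 negative), Slits and Robos -0.03 (4 of 7 negative), semaphorins 0.03 (9 of 20 negative) and plexins with neuropilins 0.07 (4 of 11 negative). The median was -0.05 over 36 ligands, 1 of them called, and -0.06 over 35 receptors, 3 of them called. These receptors were Unc5d, Plxnb2 and Epha2, which had to differ, and 4.34% of all genes rose by this rule. Whether ligands and receptors differed was not tested. Markers of brain regions also differed in this comparison. Dentate gyrus markers summed to 342 to 390 CPM in NTG and to 236 to 328 CPM in APP/PS1 mice. Of them 8 of 9 were negative, 5 at an unadjusted p under 0.05. Of hippocampal CA field markers 6 of 7 were negative, of thalamic markers all 11 and of cortical layer markers 6 of 11. All 11 striatal markers were positive. The part of these in the lower members was not tested. The plot of fold changes shows these families one below the other.

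**Figure D2:**
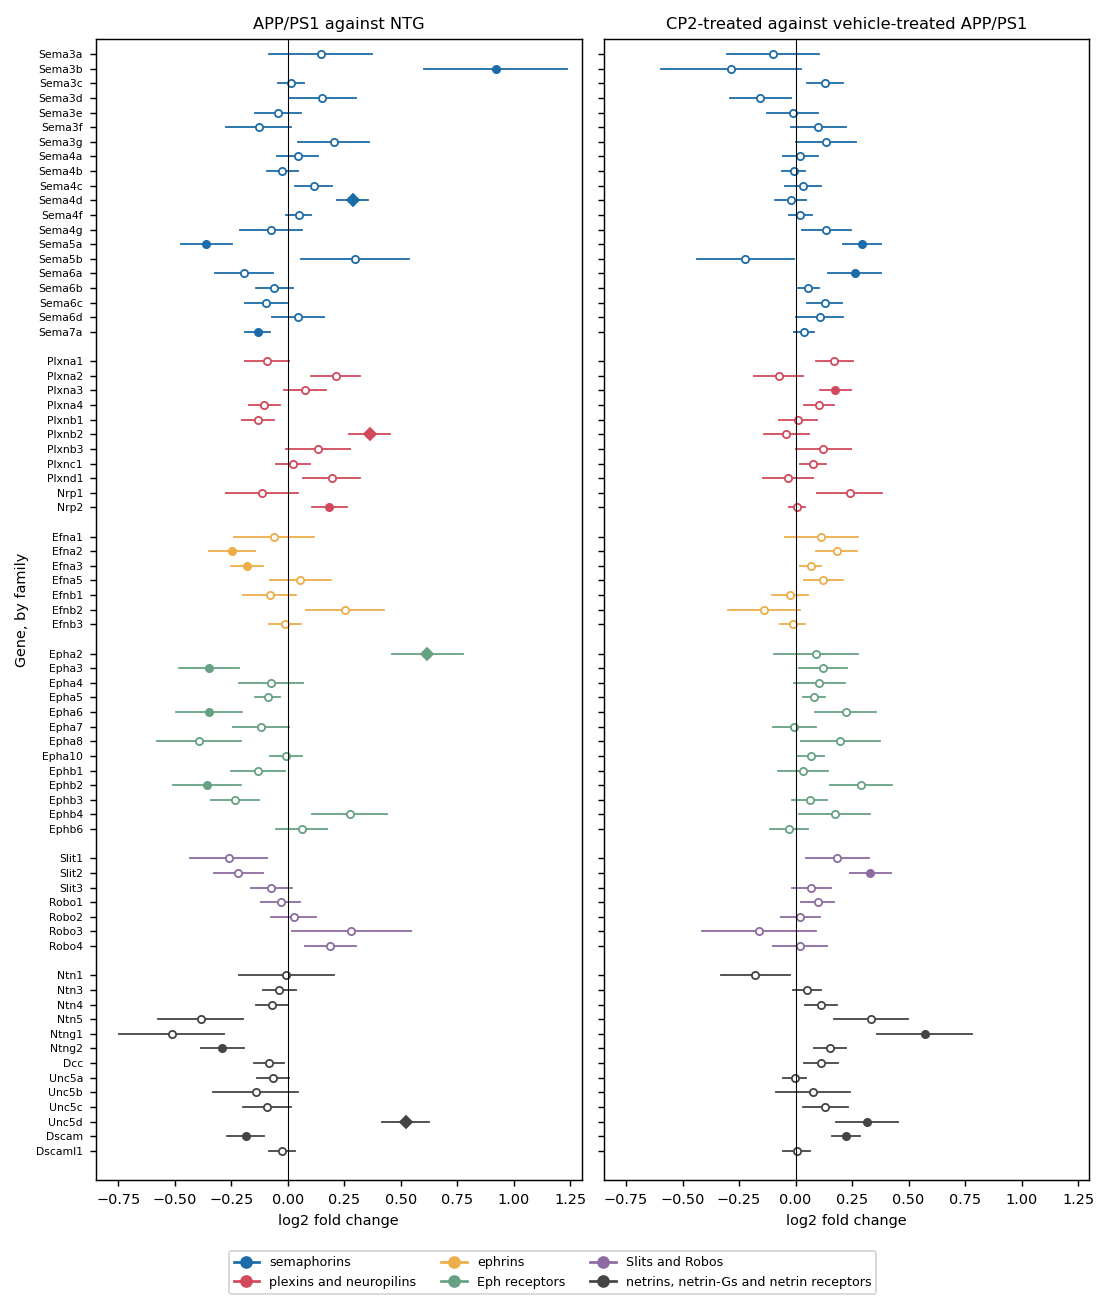
Log2 fold change of each tested member (points, lines ± 1 SE) in APP/PS1 against NTG mice (left) and in APP/PS1 mice given CP2 against those given vehicle (right). Filled points have an unadjusted p under 0.05 and diamonds an adjusted p under 0.05. Diamonds mark Sema4d, Plxnb2, Epha2 and Unc5d on the left, and there are none on the right.

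The second comparison asks what CP2 changed in APP/PS1 mice. No member passed an adjusted p under 0.05 by edgeR, DESeq2 or limma-voom, and among all 16407 genes 0% were called higher and 0.00609% lower by edgeR. At an unadjusted p under 0.05 the edgeR test gave 7 higher members (9.86%, against 2.88% of all genes) and 0 lower ones (against 3.66% of all genes). The count of higher members was 10 with DESeq2 (against 3.6% of all genes) and 8 with limma-voom (against 3.58%). The 7 were Slit2, Dscam, Sema5a, Ntng1, Plxna3, Unc5d and Sema6a. All 7 are among the 9 members that the study listed under its axon guidance terms as raised by CP2, a list made from these same mice, so it is not independent evidence of the direction. Of the 62 tested members outside that list, 44 had a positive log2 fold change (against 47.5% of all genes), with a median of 0.06. Among them 0 reached an unadjusted p under 0.05, which was fixed by leaving out a list that holds all 7. Over all members tested, 53 of 71 were positive (74.6%, against 47.5% of all genes), with a median of 0.08 against -0.01 over all genes. Markers of some brain regions differed in this comparison. All 11 thalamic markers were positive (median 0.59, 6 at an unadjusted p under 0.05). For the dentate gyrus 8 of 9 were positive (median 0.25, 1 at such a p). All 11 striatal markers were negative (median -1.39, 1 at such a p). Their sum was 2726 CPM in mouse 16, 226 to 326 CPM in the other vehicle-treated mice and 251 to 420 CPM in CP2-treated mice. Of hippocampal CA field markers 4 of 7 were positive, and of cortical layer markers 6 of 11. Ribosomal RNA-like genes took 2.4% and 2.68% of the counts of vehicle-treated mice 16 and 17, and from 4.01% to 7.5% in the other mice. The part of these in the shift of the members was not tested. The vehicle-treated APP/PS1 mice served in both comparisons, so values that were low in these mice enter both.

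Slit2 (chr5:47983155-48306282), a secreted ligand of Robo receptors that repels axons, stood at 27.0, 36.9, 38.8, 35.6 and 36.6 CPM in vehicle-treated and at 44.9, 39.1, 43.6, 49.0 and 43.8 CPM in CP2-treated mice. The groups did not overlap. Slit2 had a log2 fold change of 0.33 ± 0.09 (25.7%, unadjusted p = 0.0041, adjusted p = 0.744). NTG mice had 36.9 to 47.6 CPM, which spans values of both groups.

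Dscam (chr16:96592079-97170752), a cell adhesion molecule that binds netrin and serves self-avoidance of neurites, stood at 55.2, 62.1, 70.1, 66.2 and 70.3 CPM in vehicle-treated and at 76.1, 72.2, 77.5, 74.4 and 78.9 CPM in CP2-treated mice. The groups did not overlap here either, and the CP2-treated mice lay closer together (SD 2.63 CPM) than the vehicle-treated mice (SD 6.32 CPM). For Dscam it was 0.22 ± 0.06 (16.7%, unadjusted p = 0.0042, adjusted p = 0.744). NTG mice had 65.6 to 78.9 CPM. Slit2 and Dscam were the members without overlap, 2.82% of those tested against 0.561% of all genes.

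Sema5a stood at 87.0, 85.7, 87.1, 78.9 and 93.7 CPM in CP2-treated mice, against the 56.6 to 79.0 CPM of vehicle-treated mice given above. A single pair of mice overlapped, the highest vehicle-treated mouse 19 lying just above CP2-treated mouse 24. The log2 fold change was 0.29 ± 0.08 (22.6%, unadjusted p = 0.00431). Ntng1 (chr3:109780040-110144011), a netrin-G known in thalamic and other projection neurons, stood at 20.3, 45.8, 44.4, 41.3 and 54.8 CPM in vehicle-treated and at 51.4, 56.4, 72.3, 67.4 and 59.9 CPM in CP2-treated mice. Mouse 16 was far below the rest, and only mouse 20 reached into the range of CP2-treated mice. The log2 fold change was 0.57 ± 0.21 (48.5%, unadjusted p = 0.02) with all mice and 0.40 ± 0.11 (unadjusted p = 0.00374) without mouse 16.

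These 4 genes, Slit2, Dscam, Sema5a and Ntng1, kept an unadjusted p under 0.05 in all 10 fits that left out 1 mouse. Plxna3, a receptor for secreted semaphorins, did so in 6 of 10, Unc5d in 4 of 10 and Sema6a, a transmembrane semaphorin, in 2 of 10. Plxna3 stood at 27.7, 28.4, 33.8, 34.9 and 35.1 CPM in vehicle-treated and at 36.7, 37.0, 34.9, 35.5 and 36.8 CPM in CP2-treated mice. The vehicle-treated mice spread over a wider range (SD 3.63 CPM) than the CP2-treated mice (SD 0.91 CPM). Its log2 fold change was 0.17 ± 0.07 (12.9%, unadjusted p = 0.0273). Sema6a stood at 23.8, 28.0, 37.1, 38.7 and 29.6 CPM and at 40.7, 37.1, 39.1, 35.4 and 36.4 CPM, with a log2 fold change of 0.26 ± 0.12 (unadjusted p = 0.0457) that was 0.18 ± 0.09 without mouse 16 (unadjusted p = 0.0807).

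Unc5d stood at 78.3, 77.8, 115, 110 and 79.3 CPM in CP2-treated mice. Mice 23 and 24 lay above every other mouse of the study, whereas the other 3 lay within the range of vehicle-treated APP/PS1 mice. For Unc5d the log2 fold change was 0.32 ± 0.14 (24.6%, unadjusted p = 0.0419, adjusted p = 0.744). Without mouse 23 the unadjusted p was 0.115 and without mouse 16 it was 0.0855. Of the study's other 2 genes, Ephb2 had a log2 fold change of 0.29 ± 0.14 (unadjusted p = 0.0578 by edgeR and 0.0391 by DESeq2) and Ntng2 of 0.15 ± 0.07 (unadjusted p = 0.05 by edgeR and 0.0426 by DESeq2). With DESeq2, the tool of the study, all 9 genes of its list had an unadjusted p under 0.05. The plot of 8 genes by mouse shows the spread of each group.

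**Figure D3:**
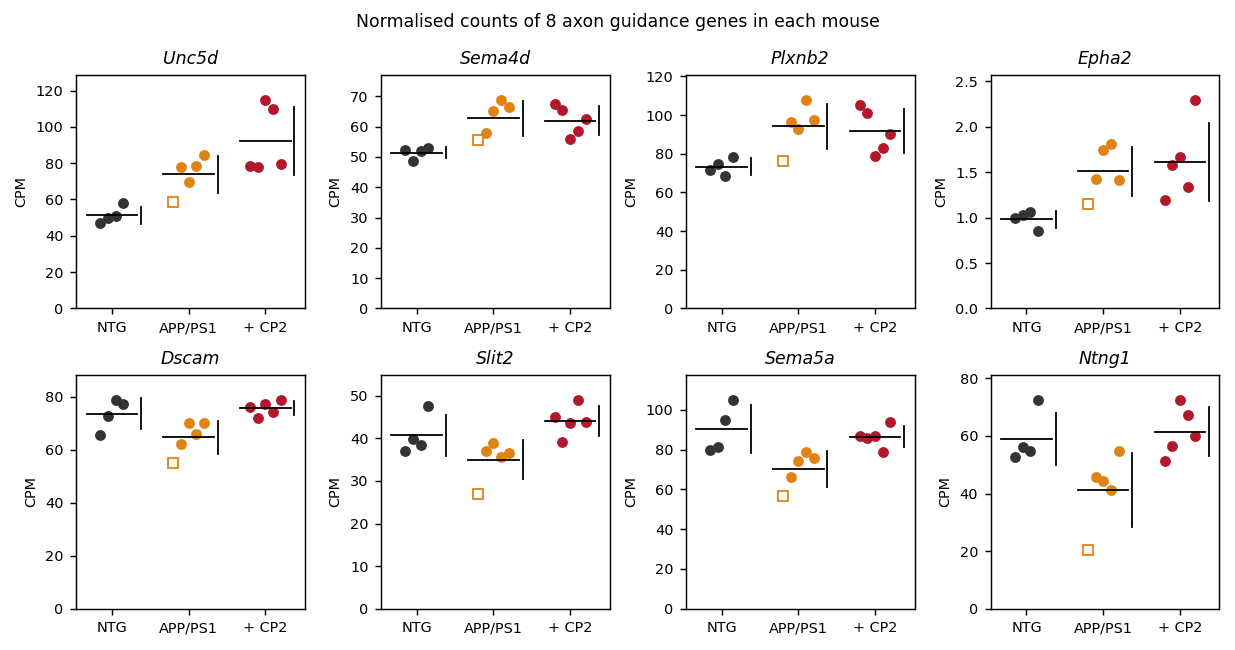
Normalised counts (CPM) of Unc5d, Sema4d, Plxnb2, Epha2 (top), Dscam, Slit2, Sema5a and Ntng1 (bottom) in NTG, APP/PS1 and CP2-treated APP/PS1 mice. Points are mice, the open square is mouse 16, horizontal lines are means and vertical lines ± 1 SD (n = 4, 5 and 5); the top genes lie higher in APP/PS1 than in NTG mice, and the bottom genes are lowest in mouse 16.

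Leaving out mouse 16 changed which members reached an unadjusted p under 0.05. There were 5 higher members (Dscam, Ntng1, Robo1, Sema5a and Slit2), with 4.25% of all genes higher, and 2 lower members (Sema3b and Sema3d), with 5.29% of all genes lower. The number with a positive log2 fold change was 58 of 71, with a median of 0.07. Robo1, a Slit receptor, had 64.0 CPM in mouse 16, above the 46.3 to 54.4 CPM of the other vehicle-treated mice, and 56.5 to 60.3 CPM in CP2-treated mice. Its log2 fold change was 0.10 with all mice and 0.17 ± 0.05 without mouse 16 (unadjusted p = 0.00678). Without mouse 20 the number of higher members was 12 (against 3.39% of all genes) and without mouse 17 it was 5 (against 2.04%). Without mouse 24 or 25 it was also 5 (against 1.91% and 1.69%).

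**Figure D4:**
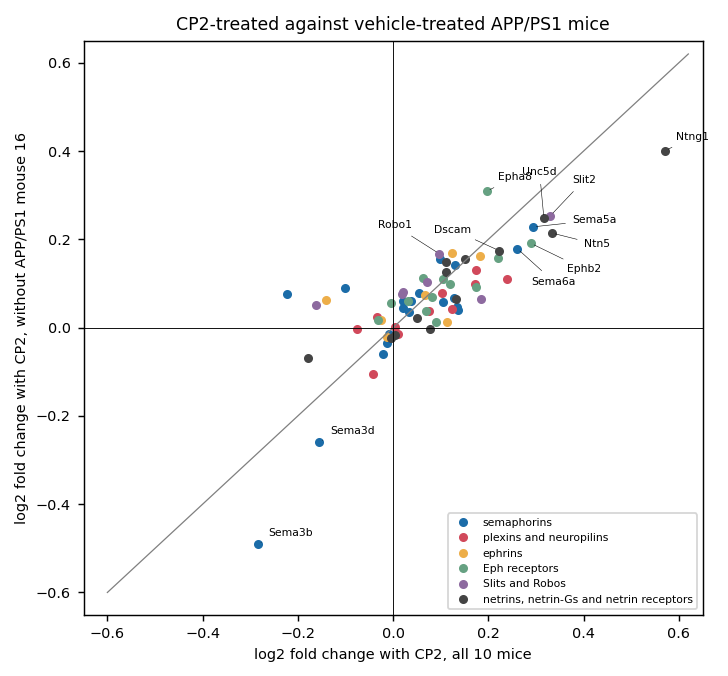
Log2 fold change of each tested member in APP/PS1 mice given CP2 against those given vehicle, with all 10 mice (horizontal axis) and without mouse 16 (vertical axis), coloured by family, with a line of equal values. Slit2, Sema5a, Dscam, Unc5d and Ntng1 lie above 0 on both axes and below the line, Ntng1 moving from 0.57 to 0.40, while Sema3b moves from -0.28 to -0.49.

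Thalamic markers went partly with Ntng1 and are given beside it. The 11 thalamic markers summed to 358, 432, 379 and 625 CPM in NTG mice, to 173, 472, 337, 332 and 412 CPM in vehicle-treated and to 408, 522, 607, 496 and 465 CPM in CP2-treated mice. The mouse lowest in thalamic markers, mouse 16, was the lowest in Ntng1, and mice 10 and 23, the highest in thalamic markers, were the highest in Ntng1. Vehicle-treated mouse 17 went otherwise. Its thalamic sum (472 CPM) was above those of NTG mice 7, 8 and 9, but its Ntng1 (45.8 CPM) was below all NTG mice (52.6 to 72.5 CPM). None of the defining markers was at 0, Tcf7l2 ranging from 5.29 CPM in mouse 16 to 51.4 CPM in mouse 10. The part of the thalamic share in the Ntng1 difference was not tested. Endothelial markers were at 180 to 192 CPM in NTG, 189 to 271 CPM in vehicle-treated and 208 to 234 CPM in CP2-treated mice. Neuronal markers overlapped, at 6086 to 7199 CPM in vehicle-treated and 6331 to 7104 CPM in CP2-treated mice.

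**Figure D5:**
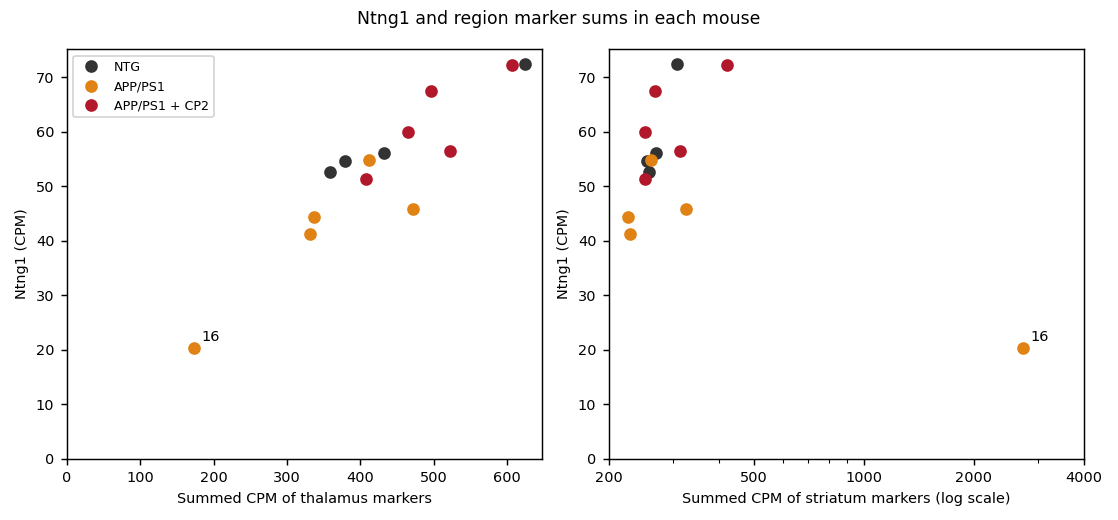
Ntng1 (CPM) in each mouse against the summed CPM of 11 thalamic markers (left) and of 11 striatal markers (right, log scale). Mouse 16, at 20.3 CPM of Ntng1, has the lowest thalamic sum (173 CPM) and the highest striatal sum (2726 CPM).

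By family, CP2-treated mice had a positive log2 fold change in 11 of 13 netrins, netrin-Gs and their receptors (median 0.11) and in 11 of 13 Eph receptors (median 0.09). The medians were 0.08 for plexins with neuropilins, 0.07 for ephrins, 0.07 for Slits and Robos and 0.04 for semaphorins, where 7 of 20 were negative. Over ligands the median was 0.07 and over receptors 0.08. For the member with the highest level in each family the values were as follows. Efnb3 had a log2 fold change of -0.01 ± 0.06 with CP2, Unc5a of -0.00 ± 0.05, Sema7a of 0.04 ± 0.04 and Epha4 of 0.11 ± 0.11. Slit1 and Plxna1 had 0.19 ± 0.14 and 0.17 ± 0.08, and without mouse 16 they had 0.07 ± 0.08 and 0.10 ± 0.05.

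The third comparison set CP2-treated APP/PS1 against NTG mice. In it 4 members rose at an adjusted p under 0.05 (5.63%, against 4.56% of all 16416 genes), namely Unc5d, Plxna3, Sema4d and Plxnb2, and none fell (against 1.46% of all genes). DESeq2 called 8 members, Epha2 among them, and limma-voom 6, all higher. The share of all genes called by these tools was not taken, so these counts have no background here. At an unadjusted p under 0.05, 12 members were higher (16.9%, against 11.6% of all genes) and 1, Epha3, was lower (1.41%, against 8.59%). Without Epha2, 11 of 70 were higher (15.7%). Groups did not overlap for 5 higher members (Plxna3, Plxnb2, Sema4d, Unc5d and Epha2, which passed the filter through the APP/PS1 mice), 7.04% (4 of 70 without Epha2, 5.71%) against 6.41% of all genes, and for 0 lower ones, against 3.3%. Of the 71 members 46 had a positive log2 fold change (64.8%, against 49.4%), and the median was 0.04 over members and -0.00 over all genes.

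Unc5d rose by 0.84 ± 0.13 (79.3%, adjusted p = 0.00334), every CP2-treated mouse being above every NTG mouse. Its adjusted p stayed under 0.05 in 9 of 9 fits that left out 1 mouse, with a highest value of 0.0152. Plxna3 (chrX:74329066-74344689) rose by 0.25 ± 0.06 (19.1%, adjusted p = 0.0316). It stood at 30, 27, 30.8 and 33.7 CPM in NTG mice, below all 5 CP2-treated mice, and passed in 2 of 9 such fits.

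Sema4d stood at 67.5, 65.6, 55.8, 58.6 and 62.4 CPM in CP2-treated mice, all above the NTG mice. It rose by 0.27 ± 0.06 (20.5%, adjusted p = 0.0225) and passed in 4 of 9 fits. Plxnb2 stood at 105, 101, 78.7, 83.2 and 90.4 CPM, the lowest mouse lying just above the highest NTG mouse. It rose by 0.32 ± 0.09 (25.3%, adjusted p = 0.0481) and passed in 1 of 9 fits. With RLE factors Plxnb2 was no longer called, and in the fit of all 3 groups neither Plxnb2 nor Plxna3 was. Between the APP/PS1 groups Sema4d and Plxnb2 had log2 fold changes of -0.02 ± 0.07 and -0.04 ± 0.10. Markers of some other cells were higher in CP2-treated than in NTG mice, without overlap. Microglial markers summed to 646 to 972 CPM against 393 to 410 CPM. For reactive astrocytes the sums were 1636 to 2755 CPM against 470 to 733 CPM, and for endothelium 208 to 234 CPM against 180 to 192 CPM. General astrocyte markers were at 4297 to 4654 CPM against 4650 to 5352 CPM, with 7 of 9 negative. The part of these markers was not tested. The number of called members was 1 without NTG mouse 8, NTG mouse 9 or CP2-treated mouse 22, and 3 without NTG mouse 7 or 10. It was 2 without CP2-treated mouse 21, 24 or 25, and 6 without CP2-treated mouse 23. Epha2 was among those called without mouse 21.

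Members that were lower in APP/PS1 than in NTG mice at an unadjusted p under 0.05 had smaller differences from NTG mice when given CP2, in all 9 cases. They were picked for low values in vehicle-treated mice. Another group would therefore tend to lie closer to NTG mice even without an effect of CP2, so the count cannot show one. Between the APP/PS1 groups, Dscam and Sema5a alone of the 9 had an unadjusted p under 0.05 by edgeR. Against NTG mice, CP2-treated mice had log2 fold changes of 0.04 ± 0.06 for Dscam, -0.06 ± 0.08 for Sema5a, -0.07 ± 0.08 for Ephb2 and -0.06 ± 0.09 for Efna2. The values were -0.13 ± 0.07 for Ntng2, -0.11 ± 0.07 for Efna3, -0.13 ± 0.08 for Epha6, -0.09 ± 0.05 for Sema7a and -0.22 ± 0.10 for Epha3. Of these 9 members, Epha3 alone had an unadjusted p under 0.05 against NTG mice by edgeR (0.0438), and had it in 3 of 9 fits with a mouse left out. By limma-voom, and by edgeR without NTG mouse 7, Efna3, Epha6, Ntng2 and Sema7a also did. Both comparisons share the NTG mice, and whether the members differed among themselves in this was not tested. The study listed Efna2, Efna3, Ephb2, Sema5a, Epha8 and Dscam as lowered in APP/PS1 mice, from these same mice, and 5 of those 6 had an unadjusted p under 0.05 here. Epha8, the exception, had -0.39 ± 0.19 (unadjusted p = 0.062 by edgeR, 0.0443 by DESeq2 and 0.0265 by limma-voom). Its log2 fold change was -0.22 without NTG mouse 7 (unadjusted p = 0.236) and -0.50 without mouse 16 (unadjusted p = 0.0173).

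Other genes of the guidance pathways were taken from 2 lists of textbook members. Of 31 tested cues, adhesion molecules and co-receptors outside the families above, Vegfa, a vascular growth factor that also binds neuropilins, was the only one called in APP/PS1 against NTG mice, and it fell by 0.52 on the log2 scale (adjusted p = 0.0312). At an unadjusted p under 0.05, 3 of the 31 were higher and 2 lower. Of 51 tested signal transducers 1 was called, with 5 higher and 7 lower at an unadjusted p under 0.05. The shares of all genes given above (4.34% higher and 1.34% lower at an adjusted p, 10.6% and 8.05% at an unadjusted p) are the background of these counts. Fes, a tyrosine kinase that acts behind plexins and is abundant in myeloid cells, rose by 1.22 ± 0.19 (adjusted p = 0.00465). Microglial markers were high in the same mice, and their part in the rise of Fes was not tested. With CP2 no gene of either list was called. At an unadjusted p under 0.05, 2 cues were higher (L1cam and Cxcl12) and 0 lower, and 4 transducers were higher (among them Vav3, the actin regulator Enah and the kinase Src) and 1 lower (Cfl1, cofilin), against 2.88% and 3.66% of all genes. The median log2 fold changes of the lists were 0.05 and 0.04, with 22 of 31 and 36 of 51 positive. In CP2-treated APP/PS1 against NTG mice, Vegfa was lower (-0.28 ± 0.06, adjusted p = 0.0146) and Kdr higher (0.34 ± 0.08, adjusted p = 0.0334). Of the transducers, Fes (1.18 ± 0.15, adjusted p = 0.000976) and Vasp (0.38 ± 0.09, adjusted p = 0.0384) were higher. By this rule 4.56% of all genes rose and 1.46% fell.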

How the data were processed

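RNA sequencing of brain tissue from 14 mice was analysed. Per the labels and the study's methods, the authors made TruSeq libraries, aligned the reads to mm10 (TopHat2) and took gene counts with FeatureCounts, in which a read counts on each gene it overlaps. The strand setting is not given in the sources used here. The deposited table holds read counts without normalization and RPKM values computed by the authors, used here only to compare levels between genes. Total counts per mouse ranged from 70548781 to 106235625.

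Each comparison was fitted on the 2 groups compared with edgeR 4.0.16 (R 4.3.3), TMM factors, the quasi-likelihood test and Benjamini-Hochberg adjustment over all genes tested, 2-sided. Genes entered if all mice of either group had a robust CPM above 1. CPM values printed use TMM factors over all 14 mice. Alternatives were RLE factors, no filter, DESeq2 1.42.0, limma-voom with sample weights (limma 3.58.1), all 3 groups in 1 fit, and each mouse left out in turn. The procedure was tested on simulated data. Tables and figures used Python 3.11.15 with pandas 2.3.3, numpy 2.4.6, scipy 1.17.1 and matplotlib 3.10.9. Promoter sequences came from RefSeq (GRCm38.p6), and overlaps of exons from GENCODE.

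Members and lists were chosen with earlier results of these data known. Members named are those the study lists under axon guidance terms, those with an adjusted p under 0.05, up to 8 with the smallest unadjusted p under 0.05 in each comparison and direction, and the member with the highest RPKM of each family. Other members were named after their values were seen. Of 73 members, 46 had the coordinates of GENCODE, and 18 shared exonic bases with another gene, 5 of them over 10% (Plxna1, Efna3, Efna4, Ntn5 and Ntng2). Each library is 1 mouse per the study's description, so p-values rest on the spread between mice. NTG mice given CP2 are not analysed here.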

Additional observations from a re-analysis of the deposited data

Results flagged for a closer look

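In each group of 4 or 5 mice, the 27 named members were examined for 1 mouse lying far from the rest of its group (Dixon's criterion at the 95% level). Of 81 groups 6 had such a mouse, and chance flags about 1 in 20 groups. Mouse 16 was low in 2 of them, with Slit2 at 27.0 CPM against 35.6 to 38.8 CPM in the other vehicle-treated APP/PS1 mice and Plxna1 at 103 CPM against 134 to 143 CPM. NTG mouse 7 was high in 2, with Epha8, an Eph receptor of the EphA class, at 16.6 CPM against 10.5 to 11.4 CPM and Plxnb3, a plexin of oligodendrocytes, at 41.6 CPM against 32.7 to 33.9 CPM. Oligodendrocyte markers summed to 7852 CPM in that mouse and to 5390 to 5835 CPM in the other NTG mice, and their part was not tested. Nrp2, a co-receptor for secreted semaphorins, stood at 64.0 CPM in NTG mouse 10 against 48.9 to 50.4 CPM, and at 64.6 CPM in CP2-treated mouse 21 against 59.2 to 60.8 CPM. Without NTG mouse 10, Nrp2 was higher in APP/PS1 than in NTG mice with an adjusted p of 0.00572.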

How the results depend on the processing

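No named member with an unadjusted p under 0.05 changed sign under any alternative run. Over all 71 members, leaving out mouse 16 changed the sign of 6 log2 fold changes between APP/PS1 and NTG mice and of 11 between the APP/PS1 groups, the largest being 0.15 and 0.22 in size with all mice. Without NTG mouse 7, the adjusted calls between APP/PS1 and NTG mice went from 4 higher to 1 lower (Efna3). Between APP/PS1 and NTG mice, fitting without the filter gave 14 lower members of 73 at an unadjusted p under 0.05 (against 5.55% of all genes). It gave 2 members at an adjusted p under 0.05. For CP2-treated APP/PS1 mice set against NTG mice, limma-voom gave 6 lower members of 71 at an unadjusted p under 0.05 (against 9.71% of all genes). The fit of all 3 groups gave 0 (against 7.56%), and DESeq2 gave 8 members at an adjusted p under 0.05, Epha2 among them. The cause of these changes was not tested. With each mouse left out in turn, APP/PS1 against NTG mice gave 5 to 8 higher and 3 to 12 lower members at an unadjusted p under 0.05. Of all genes 8.94% to 12.7% were higher and 6.05% to 9.43% lower in these fits. At an adjusted p under 0.05 the count was 0 to 5, and the median log2 fold change was -0.08 to -0.01. APP/PS1 mice given CP2 against those given vehicle gave 5 to 12 higher and 0 to 2 lower members, 0 called and a median of 0.04 to 0.09. Of all genes 1.69% to 4.25% were higher and 1.99% to 5.29% lower in these fits. CP2-treated APP/PS1 against NTG mice gave 9 to 14 higher and 0 to 8 lower members, 1 to 6 called and a median of 0.02 to 0.06. Here 9.79% to 12.7% of all genes were higher and 6.69% to 10.8% lower. Epha2 was among the higher members in every such fit of both comparisons with NTG mice. Shares of all genes at an adjusted p were not taken for the alternative runs, except between APP/PS1 and NTG mice without mouse 16. For single named members, 152 values under the other settings stayed on their side of the threshold, 12 passed it and 6 lost it, and with a mouse left out the numbers were 262, 7 and 46. No paired analysis was possible because the groups share no replicate numbers.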
